A study of Mus musculus with 3 samples.

Results

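The potassium channel genes described here are the protein-coding genes of the GENCODE M1 annotation whose symbol starts with Kcn, and they numbered 94 among 22208 protein-coding genes of mouse. Each gene was read together with 50 kb of sequence on either side, and the question was at how many of these genes, and where along them, the cardiac transcription factor NKX2-5 lay on chromatin. Whole hearts of Parkes mouse embryos at E11.5 were used for chromatin immunoprecipitation with an NKX2-5 antibody, and the precipitated DNA was sequenced (ChIP-seq). The labels name no mutant allele and no treatment. The samples were 2 NKX2-5 ChIP libraries, called S1 and S4, each with its own list of enriched regions (peaks), and 1 Input library, not analysed here. No source used here says whether S1 and S4 came from separate pools of hearts, so the spread between them may be technical. Whole hearts hold several cell types, and the peak lists carry no RNA levels against which the tissue label could be checked.

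Potassium channels let potassium ions leave or enter the cell down their gradient, and in heart muscle they end each action potential and hold the resting potential between beats. The pore is built from subunits of a few families. Voltage-gated subunits open on depolarisation, inward rectifiers pass current near the resting potential, 2-pore subunits carry background current, and a further family opens with intracellular calcium or sodium. Auxiliary subunits change the gating or the surface level of the pore. NKX2-5 is a homeodomain protein that is needed for formation and conduction of the heart.

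A peak counted as shared when peaks of S1 and S4 overlapped by at least 1 bp with both midpoints in the gene or within 50 kb of it, and pairs linked through the same peak were joined as 1 region. S1 held 4418 peaks and S4 held 5441, which formed 2546 shared regions in all. The score of a peak is the value that the authors' peak caller gave it, which this caller writes as 10 times the negative log10 of a p-value, with nothing under 140 deposited. It is relative to the background of its own library, and no read numbers were used here, so the depth of both libraries is unknown. Intervals below are 95% Clopper-Pearson intervals, which cover counting error only and treat genes or regions as independent, although neighbouring genes share regions. With 1 condition and 2 libraries, no test between groups was possible.

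A shared region lay at 22 of the 94 genes, 23.4% (15.3 to 33.3%), against 15.7% of all protein-coding genes. Potassium channel genes are longer than most, with a median length of 28.1 kb against 15.5 kb. Protein-coding genes of like length had a shared region in 18.9%, which corresponds to 17.8 of 94 genes, so the excess was 4.47 percentage points and the like-length share lay inside the interval. A peak of S1 lay at 34 genes (36.2%, against 26.4% of all genes and 30.1% at like length) and a peak of S4 at 38 genes (40.4%, against 32.1% and 35.7%). Within the gene body itself, 9 genes held a shared region (9.57%, against 4.72% of all genes and 8.75% at like length). Of the 72 genes without a shared region within 50 kb, 6 had peaks in both libraries that did not overlap, 6 had peaks in S1 only, 10 had peaks in S4 only, and 50 had none. Over all protein-coding genes, 13497 of 22208 had no peak of either library. The other counts of this split have no share over all genes beside them and are not read as a trait of these genes. A peak of either library lay at 44 of the 94 genes (46.8%, 36.4 to 57.4%), against 39.2% of all genes and 43.1% at like length. When shared regions had to score at least 200 in both libraries, 14 genes (14.9%) kept one, against 12.4% at like length. When neighbouring genes with overlapping windows were joined into 85 loci, 19 loci (22.4%, 14.0 to 32.7%) held a shared region.

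The sequences of 7 regions are shown because they cover pore subunits of 4 of the 5 classes and include genes of cardiac currents; these genes were chosen after their values were seen. Each run is 151 bases of the mm9 plus strand around the centre of the stretch that both libraries covered, and capitals mark AAGTG, the core of sites that NKX2-5 prefers, or TGACA, the core of sites of the TALE homeodomain protein MEIS1, and their reverse complements CACTT and TGTCA. The windows were Kcng1 at chr2:168109470-168109620, Kcnma1 at chr14:24502081-24502231, Kcnq1 at chr7:150298265-150298415, Kcnd2 at chr6:21217854-21218004, Kcnj5 at chr9:32131456-32131606, Kcnh2 at chr5:23843295-23843445 and Kcnk2 at chr1:191195807-191195957.
Kcng1: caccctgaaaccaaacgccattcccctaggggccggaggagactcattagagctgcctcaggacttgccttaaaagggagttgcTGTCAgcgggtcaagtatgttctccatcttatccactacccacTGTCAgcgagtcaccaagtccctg
Kcnma1: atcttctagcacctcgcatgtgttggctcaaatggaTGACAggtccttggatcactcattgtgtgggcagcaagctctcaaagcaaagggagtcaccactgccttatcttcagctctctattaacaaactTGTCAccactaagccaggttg
Kcnq1: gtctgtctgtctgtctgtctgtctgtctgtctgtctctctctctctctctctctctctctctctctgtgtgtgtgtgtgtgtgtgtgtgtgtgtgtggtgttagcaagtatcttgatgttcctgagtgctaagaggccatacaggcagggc
Kcnd2: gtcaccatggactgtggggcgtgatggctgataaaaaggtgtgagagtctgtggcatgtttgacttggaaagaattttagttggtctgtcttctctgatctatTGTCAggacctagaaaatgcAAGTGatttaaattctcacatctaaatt
Kcnj5: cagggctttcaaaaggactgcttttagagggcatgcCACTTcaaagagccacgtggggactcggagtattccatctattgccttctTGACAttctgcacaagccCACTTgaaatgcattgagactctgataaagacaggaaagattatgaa
Kcnh2: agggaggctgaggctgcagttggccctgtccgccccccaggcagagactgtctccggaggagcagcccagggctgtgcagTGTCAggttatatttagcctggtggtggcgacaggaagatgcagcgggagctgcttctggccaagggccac
Kcnk2: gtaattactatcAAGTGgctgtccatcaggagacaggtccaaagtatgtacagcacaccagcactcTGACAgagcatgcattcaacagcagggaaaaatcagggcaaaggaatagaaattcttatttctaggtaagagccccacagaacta

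Of these windows, 6 of 7 held at least 1 of the cores. Windows of 201 bases lying 2 kb to either side of the 29 regions at potassium channel genes held at least 1 in 58.6%. A match is thus common in nearby sequence too. The window at Kcnj5 held both, with 2 AAGTG cores and 1 TGACA core. At Kcnd2 and Kcnk2 each core occurred once, while Kcng1, Kcnma1 and Kcnh2 held TGACA without AAGTG. The Kcnma1 window also contained a match to the longer motif GTGNTGACA, read on the minus strand. The Kcnq1 window held neither core, and 97 of its 151 bases lay in tandem repeats, defined as at least 16 bases with a repeat unit of up to 4 bases. In the 201 bases around the centre of each region, 20 or more repeat bases occurred in 1 of 29 regions at potassium channel genes (3.45%) and in 52 of all 2546 shared regions (2.04%). The part of repeats in the Kcnq1 peak was not tested.

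Over all 29 regions, exact matches on either strand were counted within 100 bp of the centre. AAGTG occurred in 17 of 29 regions (58.6%, 38.9 to 76.5%), against 64.0% of all shared regions, and in 36.2% of windows 2 kb to either side. TNAAGTG, which contains the first core, occurred in 8 regions (27.6%, 12.7 to 47.2%), against 32.3% of all shared regions. TGACA occurred in 18 regions (62.1%, 42.3 to 79.3%), against 64.6% of all shared regions and 41.4% of the flanking windows. GTGNTGACA, which contains TGACA, occurred in 1 region (3.45%, 0.0873 to 17.8%), against 9.54% of all shared regions. Over the whole shared stretch it occurred in 4 of 29 (13.8%), against 15.4% of all shared regions. At least 1 of the AAGTG and TGACA cores was present in 25 of 29 regions (86.2%) and in 84.6% of all shared regions. In the flanking windows the shares were 58.6% and 62.6%. For each of the 4 motifs the share over all shared regions lay inside the interval of the 29, which is wide. AAGTG occurred in 7 of the 9 regions in promoters (77.8%, 40 to 97.2%), against 44.0% of all shared promoter regions, and in 10 of the other 20 (50%, 27.2 to 72.8%), against 68.1%, so the 2 groups lay on opposite sides of their backgrounds, each within its interval. A match describes the letters in the window and not a bound site.

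By class of channel, the inward rectifiers had the highest share within 50 kb, and the order of the raw shares changed with the window and the library. A shared region lay at 6 of 15 Kcnj genes (40%, 16.3 to 67.7%), against 16.1% of all protein-coding genes of like length, but these 6 genes shared 4 regions between them. Among voltage-gated pore subunits, 8 of 40 genes had a shared region (20%, 9.05 to 35.6%), against 19.6% at like length. The 2-pore channels had 3 of 14 (21.4%, 4.66 to 50.8%, against 16.6%), the calcium- or sodium-activated channels 2 of 8 (25%, 3.19 to 65.1%, against 26.1%) and the auxiliary subunits 3 of 17 (17.6%, 3.8 to 43.4%, against 18.4%). For every class but the inward rectifiers the like-length share lay inside the interval, and for the inward rectifiers it lay only just below. In gene bodies, 3 of 15 inward rectifiers held a shared region (20%, 4.33 to 48.1%), against 4.98% at like length, which lay inside the interval. With a flank of 10 kb the raw share of the calcium- or sodium-activated channels (25%) was above that of the inward rectifiers (20%). The like-length shares were 19.9% and 8.16%. With peaks of S1 alone the raw shares were 62.5% and 46.7%, against 38.2% and 27.0% at like length. The median gene length was 118 kb in the calcium- or sodium-activated class and 26.8 kb in the inward rectifiers. No 2-pore gene had a shared region within its body (0 of 14, 0 to 23.2%, against 5.81% at like length), nor within 10 kb of it, against 8.93%. With 14 genes these counts cannot be told apart from the background.

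**Figure D1:**
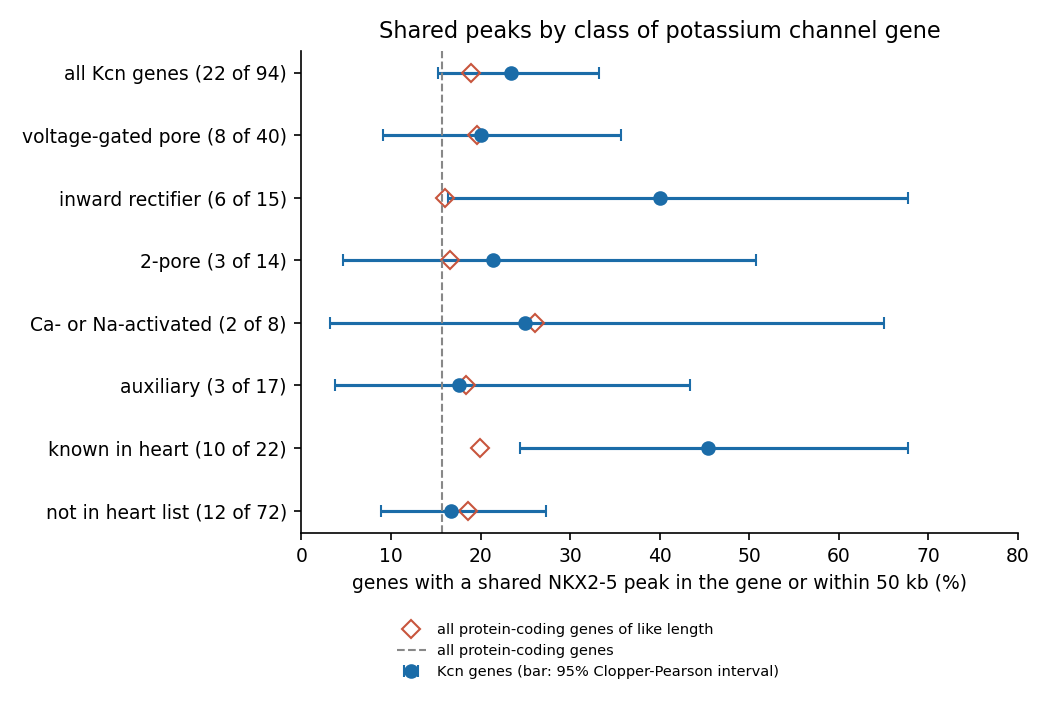
Share of genes with a shared NKX2-5 peak in the gene or within 50 kb (x axis, percent) for all potassium channel genes, their classes and the genes known in heart (y axis). Points with bars are shares with 95% Clopper-Pearson intervals, diamonds are all protein-coding genes of like length, and the dashed line is all protein-coding genes; the inward rectifiers (40%) and the genes known in heart (45.5%) stood farthest to the right.

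By symbol the genes fell into 21 subfamilies, of which 11 had a gene with a shared region. In Kcng, whose subunits form no channel alone but change the gating of other voltage-gated channels, 3 of 4 genes (Kcng1, Kcng2 and Kcng4) had one, against 14.8% of protein-coding genes of like length. In Kcnq, which holds the pore of the slow delayed rectifier and those of the neuronal M current, 2 of 5 genes carried 7 regions, against a like-length share of 27.8%. None of the 8 Kcna genes, the 4 Kcnc genes, the 4 calcium-activated Kcnn genes, the 4 Kcnmb genes or the 4 Kcnip genes had one. The like-length shares of these subfamilies were 12.6% to 27.6%, so in groups of this size a count of 0 is close to the background.

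The share depended on gene length in all protein-coding genes and less regularly in the potassium channel genes. Of members under 10 kb, 6 of 26 had a shared region (23.1%, against 11.4% of all genes of that length), of those from 10 to 30 kb 5 of 22 (22.7%, against 15.5%), and of those from 30 to 100 kb 5 of 23 (21.7%, against 16.9%). Members from 100 to 300 kb had one in 2 of 12 (16.7%, against 27.2%), and members over 300 kb in 4 of 11 (36.4%, against 38.9%). All 5 intervals included the share of all genes, as the plot by gene length shows.

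**Figure D2:**
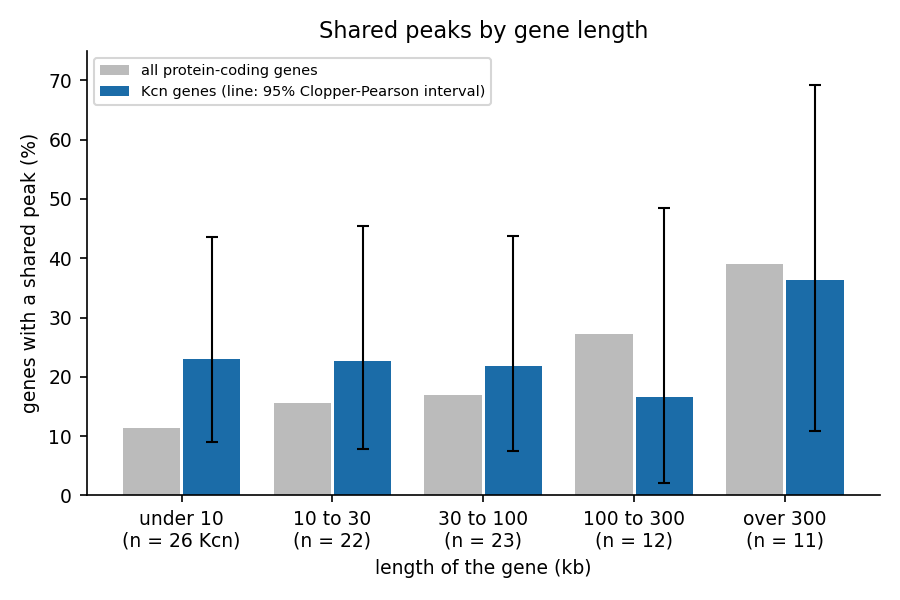
Share of genes with a shared peak (y axis, percent) by length of the gene (x axis, kb), for all protein-coding genes (grey bars) and potassium channel genes (blue bars with 95% Clopper-Pearson intervals). The shares of all genes ran from 11.4% in the shortest class to 38.9% in the longest, and those of potassium channel genes were higher in the 3 shorter classes and lower in the 2 longer ones, each within its interval.

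The 29 regions covered windows of 18.7 Mb, or 1.55 regions per Mb, against 1.23 per Mb over the windows of all protein-coding genes. A single region lay at 16 of the 22 genes and 2 or more at 6 genes, and 3 regions lay within reach of 2 members each. Inside the body of a potassium channel gene lay 15 regions, of which 14 were in introns, 6 of these in the first intron. A further 9 lay upstream of the closest member and 5 downstream. The nearest protein-coding start was that of a potassium channel gene for 17 regions and of another gene for 12, and at 9 of the 22 genes every region was nearer to the start of another gene. With each region given only to its nearest start, at any distance, 16 of 94 genes had one (17.0%), against 12.5% at like length. Which of the neighbouring genes a region concerns cannot be told apart in these data.

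Within 1 kb of an annotated transcript start, taken as the promoter, lay 9 of 29 regions (31.0%, 15.3 to 50.8%). The share over all shared regions was 17.1%. Of these, 2 lay at starts of a potassium channel gene (Kcnh2 and Kcnq5) and 7 at starts of other genes only. Introns outside promoters held 15 regions (51.7%, against 40.7%), and 4 were intergenic (13.8%, 3.89 to 31.7%, against 39.1% of all shared regions). The choice of windows around genes bears on the promoter, intron and intergenic shares alike, since sequence far from genes was not in reach. Of all 2546 shared regions, 996 were intergenic, so these shares are not set against regions of like reach. The lower of both scores had a median of 156 in the 9 promoter regions and 215 in the other 20. Over all shared regions it was likewise lower in promoters, with 205 against 250 elsewhere. When regions in promoters of other genes were left out, 17 of 94 genes (18.1%, 10.9 to 27.4%) had a shared region, against 15.7% at like length after the same removal.

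**Figure D3:**
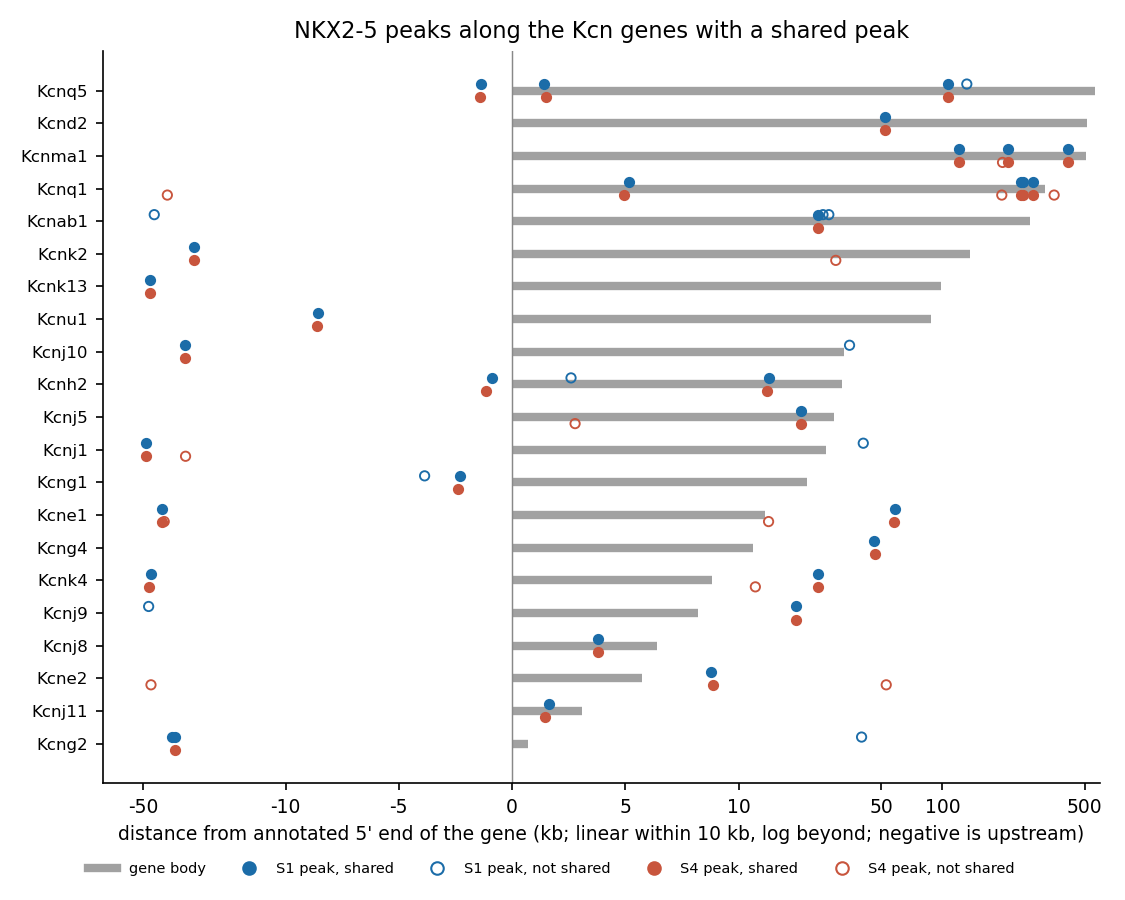
Positions of all peaks along 21 of the 22 potassium channel genes with a shared region, as distance from the annotated 5' end in kb (x axis, linear within 10 kb and logarithmic beyond, negative upstream), 1 gene per row. Grey bars are gene bodies, blue points S1 and red points S4, filled where the peak is shared; of all 29 regions 15 lay inside gene bodies, 9 upstream and 5 downstream of the closest member.

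The scores of the 29 regions had a median of 265 in S1 (146 to 1053) and 242 in S4 (141 to 1431), against 280 and 315 over all shared regions. The lower of both scores had a median of 201, against 240, and it exceeded the median of all shared regions in 10 of the 29. S4 gave the higher score in 15 regions and S1 in 14, and the log2 ratio of S4 to S1 had a median of 0.00 (-1.29 to 1.64), against 0.16. Regions at potassium channel genes thus included a few with high scores in both libraries and many close to the lowest deposited score. Of all peaks at these genes, 30 of 55 in S1 had a partner in S4 (54.5%, against 58.9% of all S1 peaks) and 29 of 60 in S4 had a partner in S1 (48.3%, against 47.0%).

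**Figure D4:**
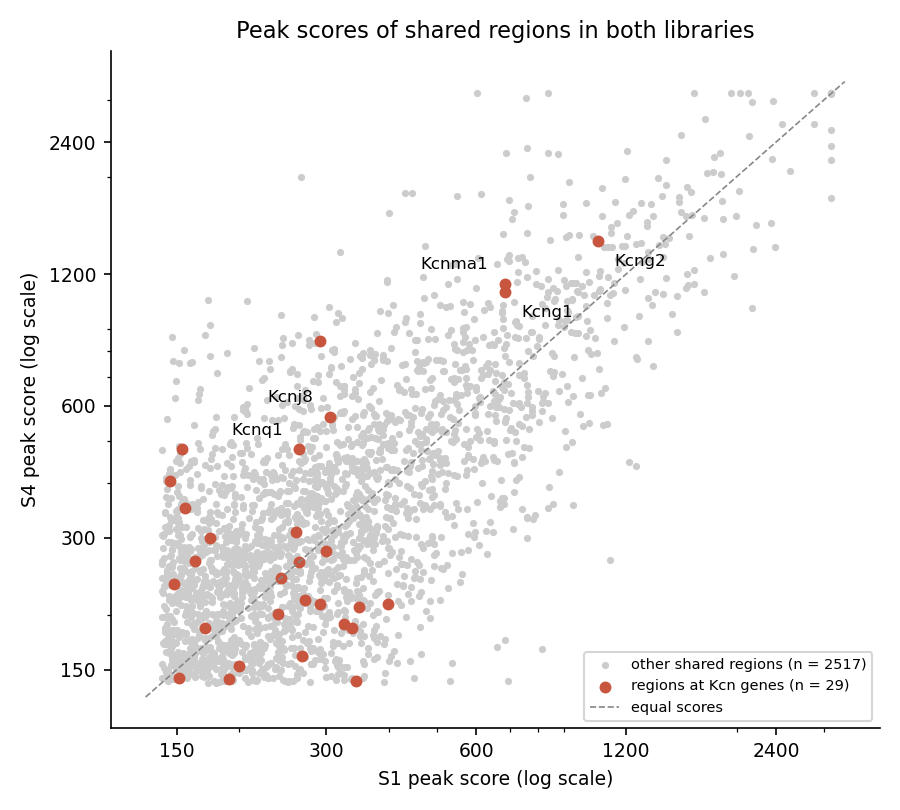
Peak scores of the 2546 shared regions in S1 (x axis) and S4 (y axis), both on log scales, with the 29 regions at potassium channel genes in red and a dashed line of equal scores. Kcng2, Kcng1 and Kcnma1 stood apart from the other red points, with S1 scores of 685 to 1053 and S4 scores of 1089 to 1431, and 15 of the 29 points lay above the line.

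The 2 best-ranked regions lay at voltage-gated subunits. The region with the best ranks lay 34.8 kb upstream of Kcng2, at chr18:80527039-80528615, and scored 1053 in S1 and 1431 in S4, ranks 131 and 98 of the lists. A second S1 peak of 365 joined it. The annotated span of Kcng2 in this release is only 0.705 kb, so its 5' end and these distances are uncertain. Kcng1 had a region 2.31 kb upstream of its 5' end, at chr2:168109069-168110022, with 686 in S1 and 1089 in S4. An S1 peak of 246 without a partner lay a little further upstream. Kcng4 had a region 34.6 kb past its end, at chr8:122112870-122113530, with 299 in S1 and 280 in S4, in an intron of another gene and nearest to the start of Taf1c. The Kcng regions thus all lay outside the annotated genes.

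Kcnd2, a pore subunit of the transient outward current that shapes early repolarisation, had 1 region, in the first of its 5 introns and 52.4 kb from the 5' end of the gene, at chr6:21217600-21218259. Its scores of 243 in S1 and 242 in S4 were almost equal.

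Kcnq1, the pore of the slow delayed rectifier and a gene of inherited long QT syndrome, held 4 regions, the most of any potassium channel gene. The first lay in intron 1 of 15, 5.18 kb from the 5' end of the gene, at chr7:150298012-150298669, with 265 in S1 and 478 in S4. This is the region with the tandem repeats shown above. Intron 11 held a region with 260 and 310 at chr7:150541575-150542121 and another with 268 and 161 at chr7:150535243-150535770. Intron 15 held the weakest, with 191 in S1 and 143 in S4. For the last 3 the nearest start was that of Cdkn1c, an imprinted inhibitor of the cell cycle, at 75.2 to 111 kb. Kcnh2, the pore of the rapid delayed rectifier, had a region 14.1 kb into the gene in intron 2 of 14, at chr5:23843166-23843575, with 240 in S1 and 201 in S4. A second region lay 0.896 kb upstream of its start, with 156 in S1 and 351 in S4. Kcnh2 was therefore the only gene of the heart list with a shared region at its own promoter. Kcnq5, a subunit of the neuronal M current, had 3 regions, with 148 in S1 and 236 in S4 at 1.37 kb upstream, 201 and 153 in the first intron, and 345 and 141 at an internal start.

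Among inward rectifiers, Kcnj8 had the region with the highest S4 score and the highest lower score, while in S1 the regions at Kcnj5 and at Kcnj9 scored higher. Kcnj8 encodes a pore of the ATP-sensitive channel of vascular smooth muscle, and its region lay in its last intron. The scores were 304 in S1 and 567 in S4. Kcnj11, the other pore of ATP-sensitive channels, had a region in its 3' untranslated region at chr7:53353841-53354310, 1.53 kb from its 5' end, with 171 in S1 and 187 in S4. Kcnj5, a subunit of the acetylcholine-activated channel of atria and nodes, had a region in intron 2 of 3 at chr9:32131171-32131892, with 349 in S1 and 209 in S4. The same region lay 48.5 kb upstream of Kcnj1, a channel of kidney tubules, and put it among the 22. Kcnj9 and Kcnj10, subunits known from neurons and glia, likewise shared 1 region, with 399 in S1 and 212 in S4 at chr1:174239782-174240734, which lay 1.64 kb from the start of Igsf8.

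In the class of calcium- or sodium-activated channels and their relatives, Kcnma1, the pore of the large-conductance channel, held 3 regions in introns. The strongest lay in intron 1 of 27, 120 kb from the 5' end at chr14:24501813-24502500, and scored 685 in S1 and 1139 in S4. Those in introns 2 and 18 scored 264 and 265, and 272 and 217. Kcnu1, a channel of sperm that is related to Kcnma1 but gated by pH and voltage, counted through a region in the promoter of Ash2l, with 292 in S1 and 212 in S4. Among 2-pore channels, Kcnk2, a stretch-sensitive background channel present in heart, had a region 28.2 kb upstream at chr1:191195456-191196308, with 337 in S1 and 187 in S4, and its start was the nearest. Kcnk13 counted through a region in an intron of Tdp1, with 326 in S1 and 191 in S4. Kcnk4 counted through promoters of Prdx5 and Fkbp2, with 164 and 266 in the former and 146 and 405 in the latter. The 2-pore regions at Kcnk13 and Kcnk4 were therefore closer to other genes.

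Of the auxiliary subunits, Kcne1, the partner of Kcnq1 in the slow delayed rectifier, had a region 40.5 kb upstream in the promoter of Rcan1, with 175 in S1 and 300 in S4. A second, with 151 in S1 and 144 in S4 in the promoter of Fam165b, was shared with Kcne2, a partner of Kcnh2. Kcnab1, a cytoplasmic beta subunit of voltage-gated channels, had a region in its first intron, with 154 in S1 and 480 in S4. Further S1 peaks of 158 and 184 in its introns and of 252 at 44.1 kb upstream had no partner. All auxiliary regions thus scored under 200 in S1.

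A list of 22 potassium channel genes known to act in heart was set beside the rest. The list came from textbook knowledge but was drawn up with earlier results of these data known, so the contrast is descriptive only. A shared region lay at 10 of the 22 (45.5%, 24.4 to 67.8%), against 20% of protein-coding genes of like length, and at 12 of the other 72 (16.7%, 8.92 to 27.3%), against 18.6%. The body of the gene held it in 6 of 22 (27.3%, 10.7 to 50.2%), against 10% at like length. Among the 10 genes were Kcnd2, Kcne1, Kcne2, Kcnh2, Kcnj11, Kcnj5, Kcnj8, Kcnk2 and Kcnq1. At 3 of the 10, Kcne1 and Kcne2 among them, every shared region lay in the promoter of another gene. Kcne1 and Kcne2 are neighbours and had a region in common, so they do not count independently. Without such regions the count was 7 of 22 (31.8%, 13.9 to 54.9%), against 16.9% at like length, and that share lay inside the interval. With scores of at least 200 in both libraries the count was 6 of 22 (27.3%, 10.7 to 50.2%), against 13.2%, which also lay inside the interval.

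The other 12 genes of the list had no shared region. No peak of either library lay at Kcna4 and Kcna5, which carry transient and ultrarapid outward currents, at Kcne3, at Kcnj3, the partner of Kcnj5 in the acetylcholine-activated channel, at Kcnj12, which contributes to the resting potential, or at Kcnn3. The nearest shared region lay between 83.4 kb (Kcnj12) and 823 kb (Kcne3) from these 6 genes. Kcnj2, the main inward rectifier of ventricular muscle, had an S4 peak of 282 at 0.941 kb upstream of its start and no S1 peak. Kcnip2, the partner of the transient outward channel, had an S4 peak of 204 and Kcnk3, an acid-sensitive background channel, had S4 peaks of 163 and 153, both without an S1 peak. Kcnd3, Kcnn1 and Kcnn2 had peaks in both libraries that did not overlap. At Kcnd3, a pore of the transient outward current, the S1 peaks scored 171, 150 and 144, and the S4 peak scored 222. Only the S1 peak of 171 lay inside Kcnd3, and the S4 peak lay in the promoter of Ddx20. At the calcium-activated Kcnn2, S1 gave 327 and S4 gave 199 at separate places in the gene. The calcium-activated Kcnn1 had S1 peaks of 330 and 147 and an S4 peak of 157, none of them inside the gene. The S1 peaks lay in the promoters of Slc5a5 and Arrdc2, and the S4 peak was nearest to the start of A230052G05Rik. In the plot of the heart list, the S1 peaks at Kcnn1 and Kcnn2 are the highest at genes without a shared region.

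**Figure D5:**
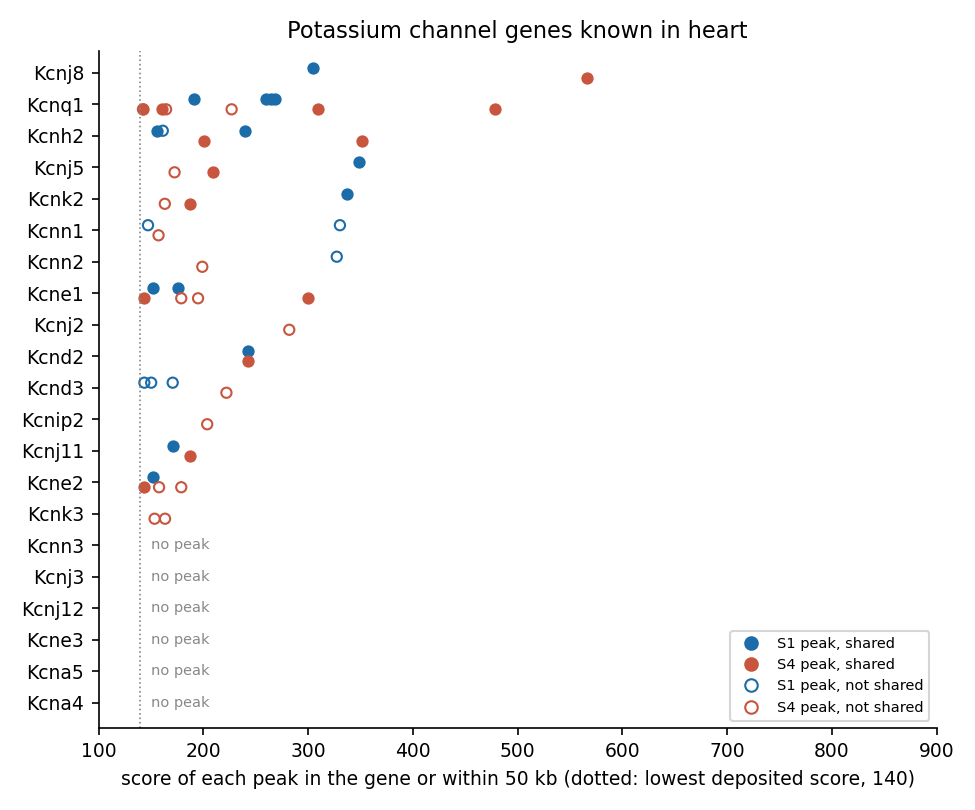
Score of each peak (x axis) in 21 of the 22 potassium channel genes known in heart or within 50 kb of them, 1 gene per row, ordered by highest score. Blue points are S1 and red points S4, filled where shared, and the dotted line is the lowest deposited score of 140; Kcnj8 had the highest S4 score shown, 567, and 6 genes had no peak.

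The limit of 50 kb set which genes counted. Just inside it lay the regions of Kcne1 at 40.6 kb, Kcnk13 at 46.5 kb and Kcnj1 at 48.5 kb. Just outside it lay those of Kcnv2 at 59.9 kb, with 653 in S1 and 573 in S4, of Kcnh4 at 64.5 kb and of Kcnab3 at 78.3 kb. The region beyond Kcnv2 thus had a lower score above that of all but 3 of the regions that counted.

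Genes that work with potassium channels without the Kcn name were counted in the same way, from a list of 18. This list, too, was drawn up with earlier results of these data known. A shared region lay at 7 of them (38.9%, 17.3 to 64.3%), against 22.5% at like length. Abcc9, the sulfonylurea receptor that pairs with Kcnj8, shared the Kcnj8 region and had another in its own intron with 157 in S1 and 318 in S4. Abcc8, which pairs with Kcnj11, shared the Kcnj11 region. Hcn4, the main pacemaker channel of the sinus node, had a region 20.5 kb upstream with 467 in S1 and 517 in S4, and a weaker one with 161 and 147. Gnai2, an inhibitory G protein subunit, had the highest scores on the list, 2559 and 2059, in an intron nearest to the start of Sema3b. Hcn3 and Lrrc38 had 1 region each, while Akap9, Chrm2, Dpp6, Dpp10, Gnb5, Hcn2, Lrrc26, Lrrc52, Lrrc55, Rgs4 and Rgs6 had none.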

How the data were processed

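Per the study's methods, sequencing used the Genome Analyzer IIx, alignment to mm9 used BOWTIE and peak calling used MACS 1.4. The settings and whether the Input served as control are not given in the sources used here. Each ChIP library has a separate deposited peak list, in which the score is that of the peak caller and other columns hold the deposited positions of the peak. Positions are given counted from 1.

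Genes, introns and transcript starts came from GENCODE M1 on NCBIM37, which is mm9, for 20 chromosomes, and 96 records gave 94 genes. Like-length shares were weighted over 5 length classes. Motifs were searched in the NCBIM37 sequence. Member genes, classes, the heart and partner lists and the rules were chosen with earlier results of these data known. Apart from items that are not reported here, all genes with a shared region are named; the genes of the 12 best-ranked regions and those of the heart list with a shared region are described in full. The removal of regions in promoters of other genes and the joining of windows into loci were chosen after seeing the data. The procedure was tested on simulated data, where 100 of 100 planted pairs were recovered. Depth is unknown. Tools were Python 3.11.15, numpy 2.4.6, pandas 2.3.3, scipy 1.17.1 and pysam 0.24.0, and bedtools 2.31.1 gave the same number of S1 peaks with a partner.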

Additional observations from a re-analysis of the deposited data

How the results depend on the processing

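Of 106 recalculated values, 83 moved by less than the spread or interval of the value as reported and 23 moved by more. The share of potassium channel genes with a shared region was 9.57% in gene bodies only (8.75% at like length) and 12.8% with a flank of 10 kb (11.6%). It was 14.9% with scores of at least 200 in both libraries (12.4%). Counting any peak of a single library gave 36.2 to 40.4%, with 55 to 60 peaks in place of 29 regions. Regions numbered 15 in gene bodies only, 45 with a flank of 100 kb and 15 with scores of at least 200. The excess over genes of like length ranged from 0.826 percentage points in gene bodies only to 8.67 when only regions within 50 kb of the 5' end counted. In that last setting 19 of 94 genes had a shared region (20.2%, 12.6 to 29.8%), and the like-length share lay just below the interval. In the other settings compared with genes of like length, it lay inside the interval. The 2-pore share was 0 in gene bodies only, with a flank of 10 kb and with scores of at least 200 (upper limit 23.2%), and the auxiliary share was 0 at that score (upper limit 19.5%). The share in the heart list was 59.1 to 72.7% with a single library (31.4 and 36.7% at like length), 31.8% with a flank of 10 kb (12.8%) and 27.3% with scores of at least 200 (13.2%). A promoter limit of 5 kb gave 62.1% of regions, a value with no share over all shared regions beside it. The choice of windows around genes bears on it as well. With 25 bp to each side, AAGTG matched 20.7% of regions, TNAAGTG 3.45%, TGACA 20.7% and GTGNTGACA 0 (upper limit 11.9%). In all shared regions these motifs matched 22.1%, 9.39%, 25.1% and 2.32%. Over the whole shared stretch they matched 79.3%, 48.3%, 93.1% and 13.8%, against 89.8%, 54.7%, 86.8% and 15.4% of all shared regions. The alternatives on other genes' promoters and joined loci were chosen after seeing the data and moved no value beyond its interval. No paired analysis was possible because there was 1 group of ChIP libraries. Depth was unknown, so a peak absent from 1 list cannot be told apart from one just under its threshold.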

Other observations

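Several potassium channel genes outside the heart list had peaks in a single library or peaks that did not overlap. The highest S1 peak without a partner at any potassium channel gene scored 439 and lay in an intron of Kcnj6, a subunit of the G protein-gated channel of neurons, where S4 peaks of 239, 156 and 149 lay elsewhere. The highest S4 peak without a partner scored 438 and lay in the promoter of Mcrs1, 9.41 kb past the end of Kcnh3. At Kcna7, S4 gave 397 and S1 gave 250 and 149, at places that did not overlap. The S4 peak at the Kcnj2 start also fell within 50 kb of Kcnj16, its neighbour, and is counted at both. Over all potassium channel genes, peaks without a partner had a median score of 184 in S1 and 184 in S4, against 267 and 242 for peaks with one. The complete lists went the same way, with 171 in S1 and 183 in S4 without a partner, against 279 and 315 with one. Neither of the 2 potassium channel genes on chromosome X had a peak.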
